A study of Mus musculus with 10 samples.

Results

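The muscle nicotinic acetylcholine receptor is encoded by the subunit genes Chrna1, Chrnb1, Chrnd, Chrng and Chrne, and the loci of these 5 genes were examined for binding of MyoD and Myf5 and for acetylation of histone H4 (H4Ac). The members were the called peaks that overlap 4 windows of the mouse build mm9: chr2:73385000-73435000 for Chrna1, chr11:69580000-69625000 for Chrnb1, chr1:89065000-89125000 for Chrnd and Chrng together, and chr11:70410000-70450000 for Chrne. They numbered 65 of the 241128 peaks in 7 lists. Of these, 13 were MyoD peaks, 21 Myf5 peaks, and 9, 12 and 10 H4Ac peaks in cells with GFP, MyoD and Myf5.

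All cells were mouse embryonic fibroblasts of the genotype MyoD-/-; Myf5-/-, so neither factor came from its own gene. They were infected with lentivirus carrying MyoD, Myf5 or green fluorescent protein (GFP), moved after 24 h to differentiation medium with insulin and transferrin, and harvested after 20 h in it. Each factor was precipitated from crosslinked chromatin of cells carrying that factor, and mock precipitations with the same antibodies used cells with GFP. H4Ac was precipitated from native, nuclease-cut chromatin of all 3 populations. There was 1 list per group. By their titles, those of MyoD and Myf5 hold 2 replicates joined, so there is no replicate error and no test between populations. The fibroblast identity was not checked, since no expression was measured here. Expression from a virus is not held at the level of the normal gene, so the lists describe binding of added factor.

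The receptor is a pentamer in the muscle membrane at the nerve terminal. The α subunit, made by Chrna1, carries most of the acetylcholine binding site, and the β, δ and γ or ε subunits complete the channel. The γ subunit belongs to the fetal receptor, and ε replaces it in the adult muscle. Both factors belong to the basic helix-loop-helix family and turn on muscle genes through the E-box, a short site of the form CANNTG, and acetylated H4 is a mark of active chromatin.

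The promoter sequences are shown because the E-box is the site these factors read. RefSeq promoters (GRCm38.p6, 250 bases before to 50 after the start) were held for 4 of the 5 genes, Chrnd being the one without an entry. They are printed 5′ to 3′ on the gene's strand with each CANNTG in capitals. The Chrna1 promoter lies at chr2:73580289-73580588 on the minus strand, the Chrnb1 promoter at chr11:69795888-69796187 (minus), the Chrng promoter at chr1:87205561-87205860 (plus) and the Chrne promoter at chr11:70619145-70619444 (minus). Those positions are on another build than the peaks and cannot be set against them.
Chrna1: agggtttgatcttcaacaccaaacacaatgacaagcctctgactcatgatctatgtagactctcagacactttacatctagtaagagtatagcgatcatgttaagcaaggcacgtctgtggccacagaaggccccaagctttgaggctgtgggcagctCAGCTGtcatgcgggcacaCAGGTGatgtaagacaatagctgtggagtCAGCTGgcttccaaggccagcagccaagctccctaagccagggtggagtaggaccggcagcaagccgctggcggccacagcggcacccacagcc
Chrnb1: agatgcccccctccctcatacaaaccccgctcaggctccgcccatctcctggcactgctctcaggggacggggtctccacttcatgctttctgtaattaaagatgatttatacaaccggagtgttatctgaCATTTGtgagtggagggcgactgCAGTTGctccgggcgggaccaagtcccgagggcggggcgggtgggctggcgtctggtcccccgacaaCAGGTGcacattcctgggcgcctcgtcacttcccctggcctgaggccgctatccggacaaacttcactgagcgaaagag
Chrng: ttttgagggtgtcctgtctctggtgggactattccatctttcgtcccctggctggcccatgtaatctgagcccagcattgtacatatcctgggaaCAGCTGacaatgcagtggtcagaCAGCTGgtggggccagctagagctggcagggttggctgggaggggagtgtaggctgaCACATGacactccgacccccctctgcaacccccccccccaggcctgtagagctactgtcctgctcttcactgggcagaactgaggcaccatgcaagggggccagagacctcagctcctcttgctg
Chrne: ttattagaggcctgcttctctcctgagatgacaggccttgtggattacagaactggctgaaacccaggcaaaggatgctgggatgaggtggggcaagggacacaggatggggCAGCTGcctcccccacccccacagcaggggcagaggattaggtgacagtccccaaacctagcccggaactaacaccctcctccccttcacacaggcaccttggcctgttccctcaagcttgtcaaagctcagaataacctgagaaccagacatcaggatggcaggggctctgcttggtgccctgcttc

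Chrna1, Chrnb1 and Chrng each held 3 E-boxes in this window and Chrne held 1, all before the start. At least 1 CANNTG stood in 72.3% of all 32851 promoters of the table and at least 3 in 17.6%. A count of 1 is thus common, and a count of 3 is less so. CANNTG reads the same on both strands, so each site was counted once. Of the 10 E-boxes, 7 read CAGCTG, or CAGGTG on either strand. Chrna1 had CAGCTG 92 and 44 bases before the start and CAGGTG 73 bases before it. At least 3 boxes of these forms stood in 1.39% of all promoters. Chrng had CAGCTG 155 and 132 bases before the start, and a pair of CAGCTG or more stood in 1.9% of all promoters. Chrne had a single CAGCTG, 138 bases before the start, and at least 1 stood in 16.3% of promoters. Chrnb1 had CAGGTG at 29 bases and no CAGCTG. A match describes the letters in this stretch and does not show that a factor was bound there.

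Every subunit window held MyoD and Myf5 peaks. Each of the 13 MyoD peaks shared at least 1 bp with a Myf5 peak (exact 95% interval 75.3% to 100%), against 97.5% of the whole MyoD list. In the other direction 10 of the 21 Myf5 peaks (47.6%, exact interval 25.7% to 70.2%) overlapped a MyoD peak, against 45.9% of the whole Myf5 list. Both shares are near those of the lists, so the overlap itself does not set the subunit loci apart. Intervals cover counting error only, and peaks of 1 window share their locus. No peak of either mock list fell in a window, and the closest lay 983 kb away from the Chrnd and Chrng window. The mock lists held only 942 (MyoD antibody) and 1359 (Myf5 antibody) peaks over all chromosomes. Most windows of these lengths therefore hold no mock peak, and the absence does not set the subunit loci apart. The share of all MyoD and Myf5 peaks that overlap a mock peak is not given here. Control coverage was 3 to 7 at the MyoD peaks and 5 to 14 at the Myf5 peaks, around the list medians of 5 and 11.

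**Figure D1:**
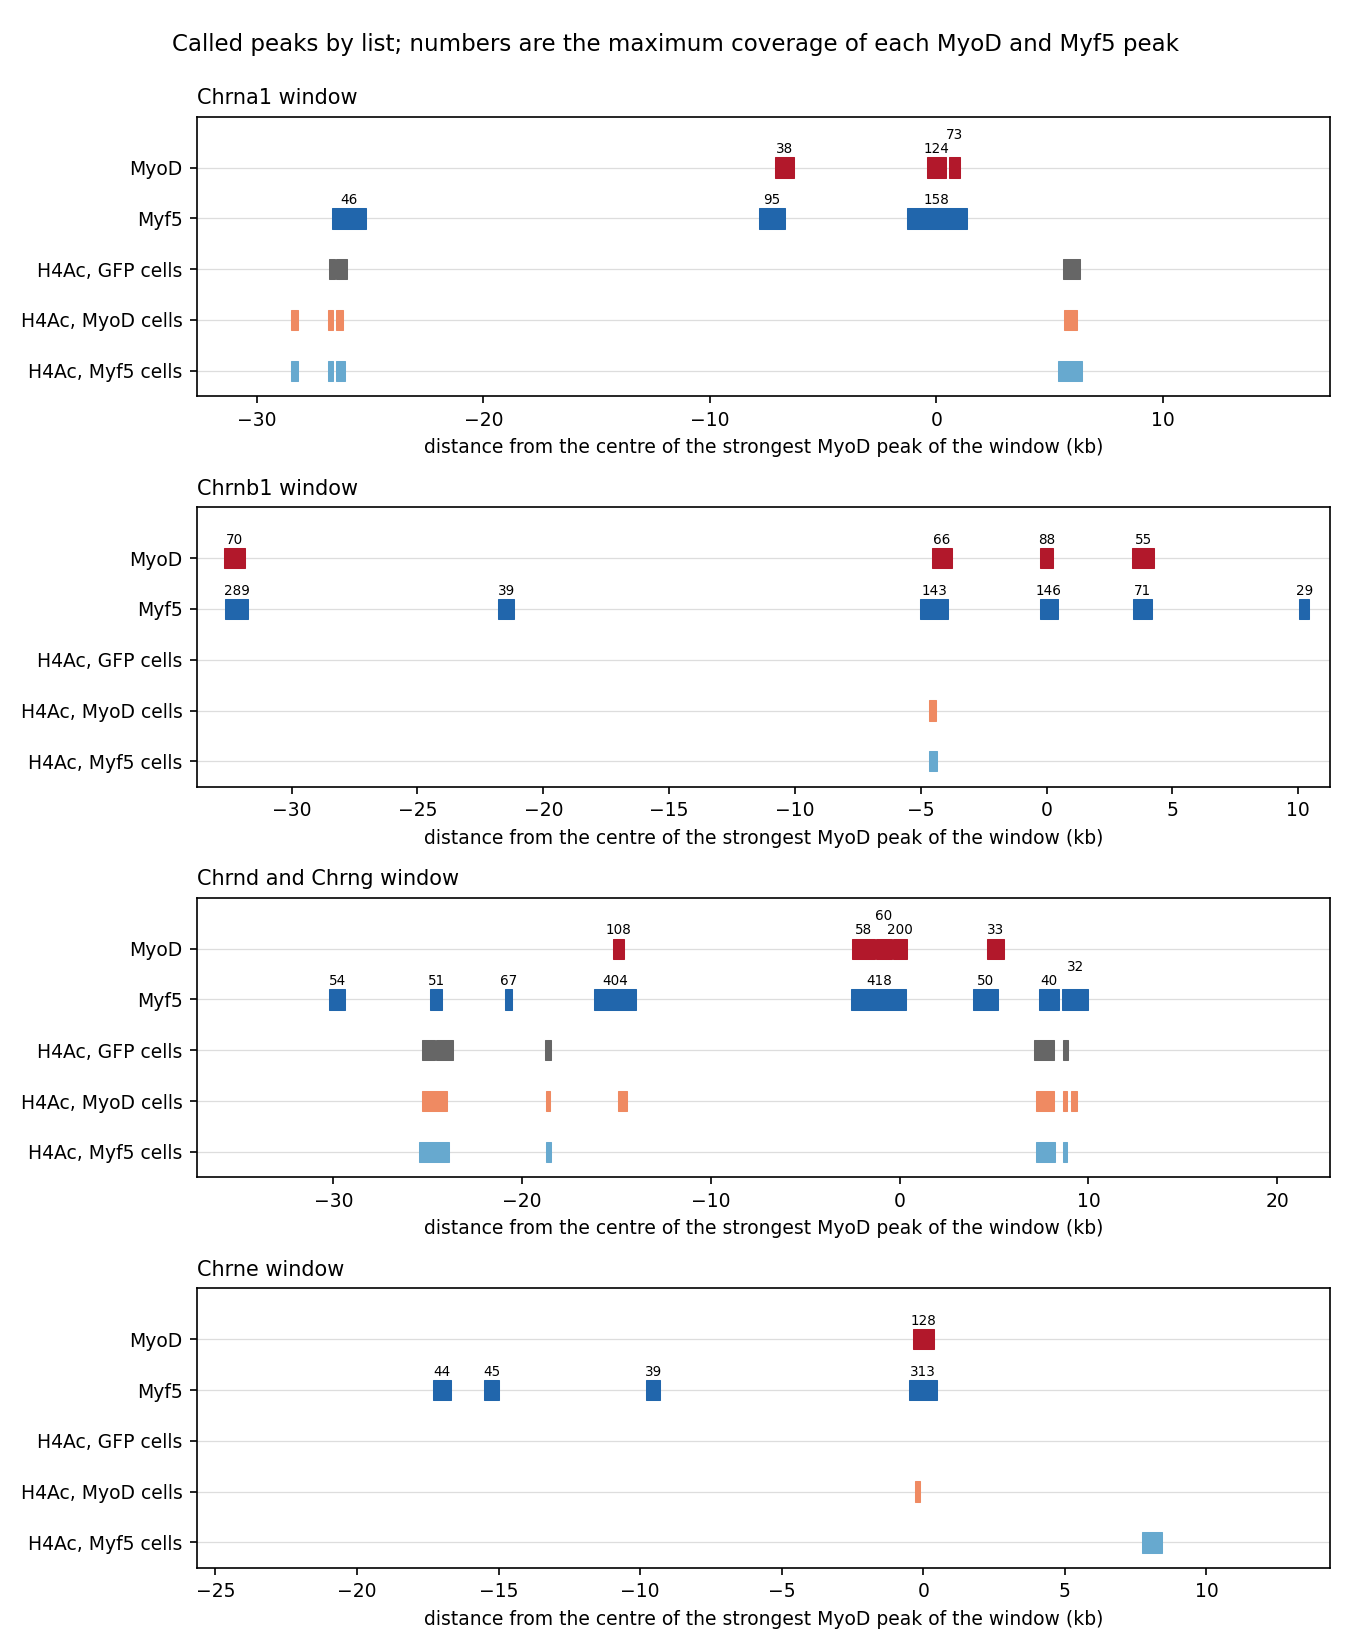
Each panel is 1 subunit window, with the distance from the centre of its strongest MyoD peak in kb on the horizontal axis and 1 row per peak list. Bars are called peaks drawn to scale, and numbers are the maximum coverage of MyoD and Myf5 peaks. The 13 MyoD peaks stand over Myf5 peaks, and the H4Ac peaks of cells with GFP stand apart from them in the Chrna1 and the shared Chrnd and Chrng windows and are missing in the others.

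Strength is given as the authors' maximum read coverage in a peak, and its rank as the percentage of the same list with a coverage at least as high ("top 5%" is strong). Coverage is not stated to be scaled to depth, so values from different lists are given side by side and not as a change. Of the 13 MyoD peaks, 11 lay above the median of 49 of their list (84.6%, exact interval 54.6% to 98.1%), against 49.8% of all MyoD peaks. The interval lies above that share, but it treats neighbouring peaks as independent. They ranged from 33 to 200 with a median of 70. Of the 21 Myf5 peaks, 10 lay above their list median of 55 (49.9% of all Myf5 peaks), with a range of 29 to 418. The Myf5 peaks were of unlike strength: median coverage was 152 for the 10 that shared a site with MyoD and 44 for the other 11. Among the latter, 1 of 11 was above the list median, against 19.5% of all Myf5 peaks without a MyoD peak. That 19.5% is below the 49.9% of all Myf5 peaks. The split by strength is thus found in the whole list and does not set the subunit loci apart.

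The strongest binding was in the window of the neighbouring genes Chrnd and Chrng. It held 5 MyoD peaks and 8 Myf5 peaks, and at least as many were found in 4.85% (MyoD) and 6.1% (Myf5) of all 60 kb windows laid end to end along the chromosomes. The strongest MyoD peak of all subunit loci lay at chr1:89101849-89102586, with a coverage of 200 and rank 2489 of 45015 (top 5.57%). Directly beside it, separated by 60 and then 46 bp, were MyoD peaks at chr1:89100972-89101788 (coverage 60, top 39.5%) and chr1:89099679-89100925 (coverage 58, top 41.2%). The Myf5 list had a single peak over all 3, chr1:89099662-89102555, 2894 bp wide with a coverage of 418, rank 2935 of 93787 (top 3.15%). Only 0.254% of Myf5 peaks were as wide.

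The other strong site of that window was at chr1:89087026-89087615 in the MyoD list (coverage 108, top 17.1%) and chr1:89086021-89088242 in the Myf5 list (coverage 404, top 3.36%). A weak shared site lay at chr1:89106838-89107720 with MyoD (coverage 33, top 83.5%) and at chr1:89106087-89107411 with Myf5 (coverage 50, top 56.1%). By their strongest MyoD peak, the strong sites were in the top 5.57% and 17.1% of the MyoD list. They ranked higher in the Myf5 list (top 3.15% and 3.36%), and the weak site is in the lower part of both lists. The remaining 5 Myf5 peaks had no MyoD peak and coverages of 32 to 67. In RefSeq gene order Prss56 precedes Chrnd and Eif4e2 follows Chrng, and no peak was assigned to a gene, exon or promoter, since the annotation is of another build.

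Chrna1, the gene of the ligand-binding subunit, had 3 MyoD and 3 Myf5 peaks, and 12.1% (MyoD) and 29.2% (Myf5) of all 50 kb windows held at least as many. The strongest MyoD peak was at chr2:73417224-73418048, with a coverage of 124 (top 13.6%). A further MyoD peak followed after 120 bp, at chr2:73418169-73418695 (coverage 73, top 30.4%). One Myf5 peak of 2639 bp, chr2:73416335-73418973, covered both, with a coverage of 158 (top 15.4%). This was the only one of the 10 shared sites at which the stronger MyoD peak had a better rank in its list than the Myf5 peak had. A weaker shared site lay at chr2:73410517-73411328 with MyoD (coverage 38, top 70.2%) and chr2:73409801-73410961 with Myf5 (coverage 95, top 28.3%). The third Myf5 peak, chr2:73390953-73392449 (coverage 46, top 61.3%), had no MyoD peak. The next protein-coding gene in RefSeq order is Chn1.

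Chrnb1, the gene of the β subunit, had MyoD coverages of 55 to 88 at 4 sites, and Myf5 coverages of 71 to 289 at the same sites. At least 4 MyoD peaks were found in 5.15% of all 45 kb windows, and at least 6 Myf5 peaks, as here, in 7.45%. The strongest MyoD peak lay at chr11:69613488-69614011 (coverage 88, top 23.1%), over a Myf5 peak of coverage 146 at chr11:69613474-69614200 (top 17%). The order differed in the Myf5 list, whose strongest peak was at the window's edge at chr11:69581100-69582022 (coverage 289, top 6.19%), with a MyoD coverage of 70 (top 32.2%) at chr11:69581073-69581898. The site at chr11:69609204-69609980 had a MyoD coverage of 66 (top 34.7%) and a Myf5 coverage of 143 (top 17.5%, chr11:69608716-69609837). At chr11:69617148-69618020 the MyoD coverage was 55 (top 44.1%), and at chr11:69617194-69617940 the Myf5 coverage was 71 (top 38.8%). The 2 Myf5 peaks without MyoD, at chr11:69591966-69592591 and chr11:69623784-69624182, had coverages of 39 and 29. Zbtb4 and Fgf11 flank Chrnb1 in RefSeq order.

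Chrne, the gene of the adult ε subunit, had 1 MyoD peak, and 37.2% of all 40 kb windows had at least 1. It was strong in its list, at chr11:70435281-70436007 with a coverage of 128 (top 12.9%). The Myf5 peak over it, chr11:70435124-70436124, had a coverage of 313 (top 5.36%), and the 2 centres were 20 bp apart. The other 3 Myf5 peaks of the window, at chr11:70418318-70418973, chr11:70420146-70420644 and chr11:70425868-70426343, had coverages of 44, 45 and 39 and no MyoD peak. At least 4 Myf5 peaks were found in 15.3% of all 40 kb windows. Mink1 precedes Chrne in RefSeq order.

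The strongest MyoD peak was thus at the shared Chrnd and Chrng window, followed by Chrne (128), Chrna1 (124) and Chrnb1 (88). Coverages of 128 and 124 cannot be ordered without replicates. In the Myf5 list the strongest peaks were those of Chrnd and Chrng (418 and 404), followed by Chrne (313), Chrnb1 (289) and Chrna1 (158). Those of Chrne and Chrnb1 likewise cannot be ordered, and the Chrnb1 peak of 289 lies outside windows shortened by 5 kb at each side, in which the strongest Chrnb1 peak had a coverage of 146, below the 158 at Chrna1. Of the 10 shared sites, each taken by its strongest MyoD peak, 9 had a better rank in the Myf5 list. A better rank in the Myf5 list was also found for 92.7% of all 44305 overlapping pairs, counted without that choice. A better Myf5 rank therefore does not set the subunit sites apart. The Myf5 list is the longer one, and whether this bears on the ranks was not tested.

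**Figure D2:**
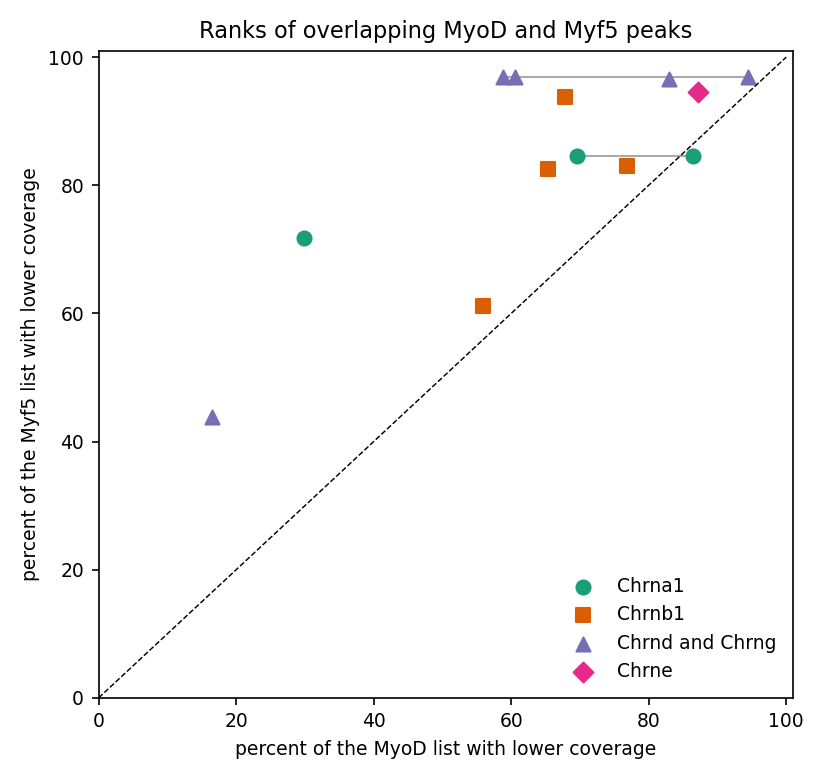
Each point is an overlapping pair of a MyoD and a Myf5 peak in a subunit window, placed by the percentage of each list with lower coverage; grey lines join MyoD peaks under the same Myf5 peak, and the dashed line marks equal percentages. Of the 13 pairs, the strong Chrna1 pair (86.4% and 84.6%) lies just below the line and all others above it.

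MyoD peaks that stand close together, as in the shared Chrnd and Chrng window and at Chrna1, were rare in the whole list. Of the 13 MyoD peaks, 5 had another MyoD peak within 150 bp, against 3.87% of the whole list. Of the 21 Myf5 peaks, 2 held at least 2 MyoD peaks, against 1.28% of the whole list, and 1 held 3, against 0.0544%. This feature and its distance were chosen after the values were seen, so the counts are a description. The centres of paired MyoD and Myf5 peaks lay within 100 bp for 5 of 13 pairs, against 56.9% of all pairs. MyoD peaks under the same Myf5 peak cannot all lie near its centre, so this share partly restates the close MyoD peaks.

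After merging overlapping H4Ac peaks, the windows held 13 regions: 7 called with GFP, none of them at a MyoD peak, and 6 called only with a factor, of which 3 were at a MyoD peak and 3 were not. All 3 populations shared 7 of them, against 40.8% of all 45627 merged regions. Another 2 were called with MyoD and with Myf5 but not with GFP (8.3% of all), 3 with MyoD only (14%) and 1 with Myf5 only (13.7%). In the whole lists, 32.3% of the regions called in all populations and 29.3% of those not called with GFP overlapped a MyoD peak.

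**Figure D3:**
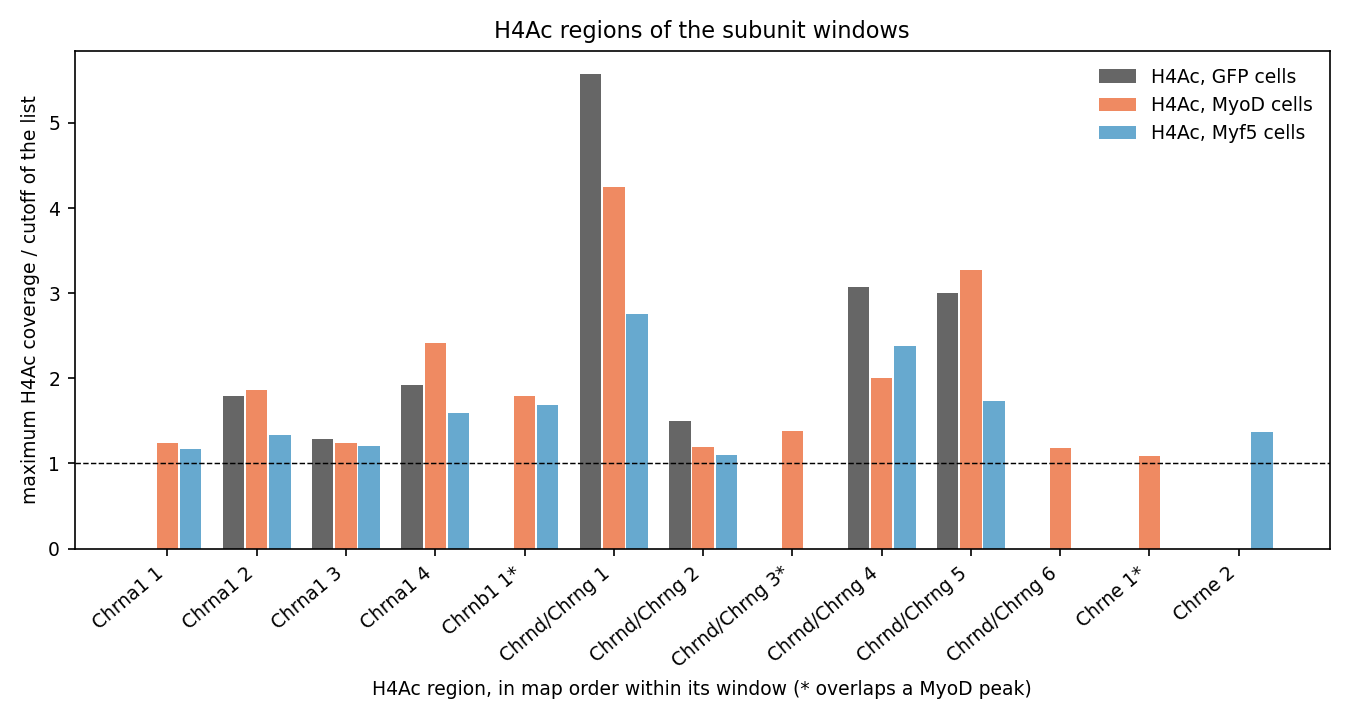
Bars give the maximum H4Ac coverage of each merged region divided by the coverage cutoff of its own list, for cells with GFP, MyoD and Myf5; the dashed line marks the cutoff, and no bar means no called peak. The 3 regions marked with an asterisk overlap a MyoD peak and have no bar for cells with GFP.

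Seen from the MyoD peaks, 0 of 13 stood at an H4Ac peak of GFP cells (exact interval 0% to 24.7%), against 14.4% of the MyoD list. With MyoD it was 3 of 13 (23.1%, exact interval 5.04% to 53.8%), against 18.6%, and with Myf5 1 of 13 (7.69%, exact interval 0.195% to 36%), against 15.1%. Each interval contains the share of the whole list. Among all MyoD peaks without H4Ac in cells with GFP, 7% had it with MyoD and 4.14% with Myf5, and these too lie within the intervals for the 13. With 13 peaks, the counts show where H4Ac was called and not a difference from other bound sites.

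The 3 sites were at Chrnb1, at the shared Chrnd and Chrng window and at Chrne. At Chrnb1 no H4Ac peak was called anywhere in the window in cells with GFP. The median over all 45 kb windows was also 0 such peaks, so an empty window is common. At least 1 H4Ac peak was found in 25.3% of those windows with MyoD and in 24.8% with Myf5. Cells with MyoD had 1 at chr11:69609085-69609373 (coverage 43, cutoff 24) and cells with Myf5 had 1 at chr11:69609095-69609391 (coverage 49, cutoff 29). Both overlapped the MyoD peak of coverage 66 described above, the third strongest of the 4 in the window. Their coverages were 1.79 and 1.69 times the cutoff, among the highest 4.08% and 4.29% of the peaks that each list had without a GFP counterpart, for which the median was 1.14 and 1.15.

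At the strong site of the Chrnd and Chrng window whose MyoD coverage was 108, cells with MyoD had an H4Ac peak at chr1:89087287-89087792, with a coverage of 33 at a cutoff of 24. It was 1.38 times the cutoff, in the top 17.6% of the peaks without a GFP counterpart. No H4Ac peak was called there with GFP or with Myf5. The strongest factor site of all, the group of 3 MyoD peaks (coverage up to 200) under the Myf5 peak of coverage 418, overlapped no H4Ac peak in any population. The peak of coverage 200 was the only member in the strongest 10% of the MyoD list. Of that strongest 10%, 23%, 40.5% and 26.4% were at H4Ac with GFP, MyoD and Myf5. In each population taken alone, most of these strong peaks thus had none. The share without H4Ac in all 3 populations was not counted.

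At Chrne, no H4Ac peak was called in the window with GFP, and the median over all 40 kb windows was also 0. At least 1 H4Ac peak was found in 23.4% of those windows with MyoD and in 22.9% with Myf5. Cells with MyoD had 1 inside the shared factor site, at chr11:70435353-70435513, with a coverage of 24 at a cutoff of 22. That is 1.09 times the cutoff, so the call is close to the limit of detection. Cells with Myf5 had none there and 1 at chr11:70443371-70444064 (coverage 37, cutoff 27), which lay 7247 bp from the nearest Myf5 peak. A site with no call may lie just under the cutoff, and the coverage of regions that were not called is not in the lists.

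At Chrna1 neither shared factor site overlapped an H4Ac peak in any population. At least 4 H4Ac peaks, the count in each population, were found in 4.72% (GFP), 6.17% (MyoD) and 4.74% (Myf5) of all 50 kb windows. The H4Ac peaks of the Chrna1 window lay away from its shared factor sites. The one at chr2:73423205-73423989 in cells with GFP (coverage 50, cutoff 26) had counterparts with MyoD (coverage 53, cutoff 22) and Myf5 (coverage 43, cutoff 27), and the merged region was 4287 bp from the nearest MyoD peak and 4009 bp from the nearest Myf5 peak. A group at chr2:73390794-73391593 overlapped the weak Myf5 peak without MyoD and was called in all populations, with coverages of 25 to 43 with GFP, 26 and 39 with MyoD, and 29 and 32 with Myf5. Near the edge of the window, chr2:73389152-73389446 was called with Myf5 (coverage 28, cutoff 24) and, at chr2:73389161-73389445, with MyoD (coverage 26, cutoff 21), with no factor peak.

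The Chrnd and Chrng window held 5, 6 and 4 H4Ac peaks with GFP, MyoD and Myf5. At least as many were found in 3.7%, 3.2% and 6.14% of all 60 kb windows. The strongest H4Ac region of the subunit windows was at chr1:89076760-89078546, on the Prss56 side of the Chrnd and Chrng window. Its coverage was 156 with GFP (cutoff 28), 102 with MyoD (cutoff 24) and 80 with Myf5 (cutoff 29), in the top 1.74%, 3.26% and 8.28% of the lists. It overlapped a weak Myf5 peak (coverage 51) and lay 8480 bp from the nearest MyoD peak. On the Eif4e2 side, chr1:89109327-89110433 had coverages of 86, 48 and 69 with GFP, MyoD and Myf5, and chr1:89110846-89111120 had 78, 72 and 47. A peak beside it at chr1:89111277-89111584 was called with MyoD only (coverage 26, cutoff 22). A smaller region at chr1:89083448-89083745 was called in all populations (coverages 45, 31 and 34) with no factor peak. The populations share each of these regions apart from the one called with MyoD only, and the order of their coverages cannot be read as a change.

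Of all 21 Myf5 peaks, 4 were at H4Ac with GFP (19%, exact interval 5.45% to 41.9%, against 11.6% of the list), 7 with MyoD (33.3%, 14.6% to 57%, against 13.6%) and 5 with Myf5 (23.8%, 8.22% to 47.2%, against 11.9%). Only the interval with MyoD lies above its list share, and peaks of 1 window are not independent. Of the 10 that shared a site with MyoD, 0 were at H4Ac with GFP (exact interval 0% to 30.8%), 3 with MyoD and 1 with Myf5. The shares among all such Myf5 peaks were 15.6%, 20% and 16.2%. Of the 11 without MyoD, 4 were at H4Ac in each population (36.4%, exact interval 10.9% to 69.2%). Among all Myf5 peaks without MyoD, those shares were 8.18%, 8.2% and 8.27%, which lie below the interval. The 4 peaks, of coverages 32 to 51, were 3 in the Chrnd and Chrng window and 1 in the Chrna1 window. They overlap the regions on the Prss56 and Eif4e2 sides and the group at Chrna1 described above. They thus come from 3 stretches of chromatin, whereas the interval treats them as independent.

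Over the windows, 5 of the 12 H4Ac peaks of cells with MyoD had no GFP counterpart, against 30.7% of that list, and 3 of the 10 with Myf5, against 31.9%. With a higher floor on coverage over cutoff, the count with MyoD was 2 in place of 5, and that with Myf5 was 2. Those with MyoD were at Chrna1, Chrnb1 and Chrne, 1 each, and 2 in the Chrnd and Chrng window, and those with Myf5 were at Chrna1, Chrnb1 and Chrne, 1 each. All 9 GFP peaks, which lay in 7 merged regions, had a counterpart with MyoD and with Myf5. The share without one was thus 0% (exact interval 0% to 33.6%), against 23.9% and 27.2% of the GFP list. The interval holds both values, so 9 peaks are too few to tell whether they differ from the list. Both comparisons share the GFP list.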

How the data were processed

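The analysis started from 7 peak lists. The submitters' processing notes name CASAVA 1.8.2, BWA 0.7.5 and the builds hg19 and mm9, with no roles. Not given in the sources used here are the peak caller, the joining of replicates and the H4Ac control. Per the file headers, each row holds a position, the authors' maximum coverage (signal), a coverage cutoff for 1 of 5 bins of GC content, a p-value and, outside the mocks, the same for a control. The deposited p-value was not used. The deposited control p-value can exceed 1, so it was treated as a score and used only in a filter at 1e-05. Sequencing depth is unknown from these files. Per the labels' protocols, factor chromatin was fixed for 11 min, and H4Ac chromatin was digested for 18 min by micrococcal nuclease (15 units).

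Samples were grouped by their titles, giving 7 lists in 7 groups of 1, and 3 input samples were not analysed here. Peaks overlapping the windows by at least 1 bp were taken. Lists were compared by overlap of at least 1 bp, coverage was ranked within a list, and shares have exact (Clopper-Pearson) binomial intervals at a confidence level of 0.95. Background windows of equal length ran from position 3000000 to the last peak of each chromosome. E-boxes were counted in RefSeq promoters. Overlap code was tested on simulated data. The members and lists were chosen with earlier results of these data known. Per window and list every peak was to be named where there were at most 5, otherwise the 5 strongest by coverage, and the rest by range; the text also names positions beyond these 5. Other genes of the neuromuscular synapse were not analysed here, since no annotation of mm9 was used. Computation used pandas 2.3.3, numpy 2.4.6 and scipy 1.17.1 in Python 3.11.15, and figures matplotlib 3.10.9.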

Additional observations from a re-analysis of the deposited data

How the results depend on the processing

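Of 66 alternatives of the counts, 61 left the count within 1.5 times its value. Some of the 61 could not move it, so they are no measure of stability. No mock peak lay in a window, the GFP list is the shortest H4Ac list, and a count of 0 cannot fall. A fall from 3 to 2, as for MyoD peaks at H4Ac with MyoD, also counts as within 1.5 times. The other 5 alternatives, given next, used stricter criteria. Above the median coverage of the Myf5 list 10 of 21 peaks were left. With centres within 100 bp, 5 MyoD peaks had a Myf5 peak and 5 Myf5 peaks a MyoD peak, against 13 and 10. With a higher floor on H4Ac coverage over cutoff, cells with MyoD kept 7 of 12 peaks, of which 2, at Chrnb1 and in the Chrnd and Chrng window, had no GFP counterpart, against 5. The Chrne call was among those lost. Ranking by coverage over cutoff moved the median member in all 5 lists: to the top 33.1% from 32.2% (MyoD), 54.4% from 51.8% (Myf5), and for H4Ac 27.2% from 26.2% (GFP), 39.6% from 35.9% (MyoD) and 44.7% from 39.6% (Myf5). No paired analysis was possible because each group has 1 list. Each list gives called peaks only, so H4Ac under the cutoff was not detectable.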
